A study of Homo sapiens with 4 samples.

Results

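The mRNAs that encode the nuclear pore and the factors that carry cargo through it were followed in RNA recovered with EXOSC10, the nuclear 3′ to 5′ exoribonuclease of the RNA exosome. They were chosen by symbol: NUP, XPO, IPO, KPNA, KPNB, TNPO, NXT or RANBP followed by a number, XPOT, NXF1, and RAN, RANGAP1, RAE1 and TPR. This gave 56 of the 12838 gene symbols in the table. The source was LM2-4175, a breast cancer line selected from MDA-MB-231 for growth in the lung. Cells of every group stably carried a construct that expresses CerS4, a ceramide synthase, when doxycycline is given. There were 4 groups with 1 library each: EXOSC10 antibody on cells given doxycycline at 5 µg/mL for 48 h, EXOSC10 antibody on untreated cells, control IgG on doxycycline cells, and control IgG on untreated cells. The study asked how the PD-L1 and Caprin-1 complex bears on mRNA degradation when lipid metabolism is altered, and set doxycycline against no doxycycline in the EXOSC10-bound RNA as its primary comparison. No library had a replicate, so ratios between single libraries have no replicate check and no p-value, and their intervals cover counting error only. CERS4 has no entry analysed here, so induction was not checked, and whether the line is a clone is not given in the sources used here. No library of input RNA was analysed here, so the level of an mRNA in the cells and its recovery by an antibody cannot be told apart.

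The nuclear pore is a ring-shaped channel through the nuclear envelope, built from stacked outer and inner rings, a central channel of proteins rich in phenylalanine-glycine repeats, cytoplasmic filaments and a nuclear basket. Importins, transportins and exportins bind cargo and move through these repeats. The small GTPase Ran sets the direction of transport: bound to GTP in the nucleus, it loads exportins and unloads importins. Most mRNAs leave by another route, with the receptor NXF1 and its partner NXT1. The nuclear exosome, with EXOSC10, trims and degrades RNA before it can leave.

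The EXOSC10 libraries held 5511219 reads with doxycycline and 4233603 untreated, and the IgG libraries 7575145 with doxycycline and 3723313 untreated. Ribosomal RNA took 56.3% to 83.8% of them and left 1023364 to 2408181 reads on other genes. The pore and transport mRNAs held 18197 reads, 0.756% of the non-ribosomal reads, in the doxycycline EXOSC10 library and 8104, or 0.792%, in the untreated one. In IgG they held 12820 reads, 1.04%, with doxycycline and 8483, or 0.806%, without it. The mesenchymal markers VIM, CD44, AXL, CAV1, MSN and FOSL1 were all present. Of the luminal or epithelial markers 6 of 8 had an entry (ESR1 and EPCAM had none), and of the blood and immune markers 0 of 5 had one. The mesenchymal list held 0.368% to 0.476% of the non-ribosomal reads of a library and the luminal or epithelial list 0.0161% to 0.0541%. The latter included 661 KRT18 and 411 FOXA1 reads in the doxycycline EXOSC10 library. Levels below are reads per 1000000 (CPM), brought to a common scale by TMM, the trimmed mean of log ratios, and called scaled CPM. They are not divided by transcript length and are therefore compared between libraries of a gene, not between genes.

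Reads for the 56 mRNAs came from 125 entries of the table, 26 of them with a single entry. In 38 of them the estimated reads were whole in every library, and in 18 they held fractions in at least 1 library. Of the genes, 9 overlap another gene in the table (among them NUP188 with SH3GLB2, XPO5 with POLR1C, RANBP3 with CAPS and RANBP2 with several genes including its near copy RGPD5). The strand setting of the counting is not given in the sources used here, so the reads of such neighbours cannot be told apart. In KPNA5, NUP210, NUP35, NUP37, NUP42, NUP54, NXT1 and RAE1 no pair of libraries reached 100 reads, the minimum for a call. KPNA7, NUP210L, NXT2 and RANBP17 have no entry analysed here.

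**Figure D1:**
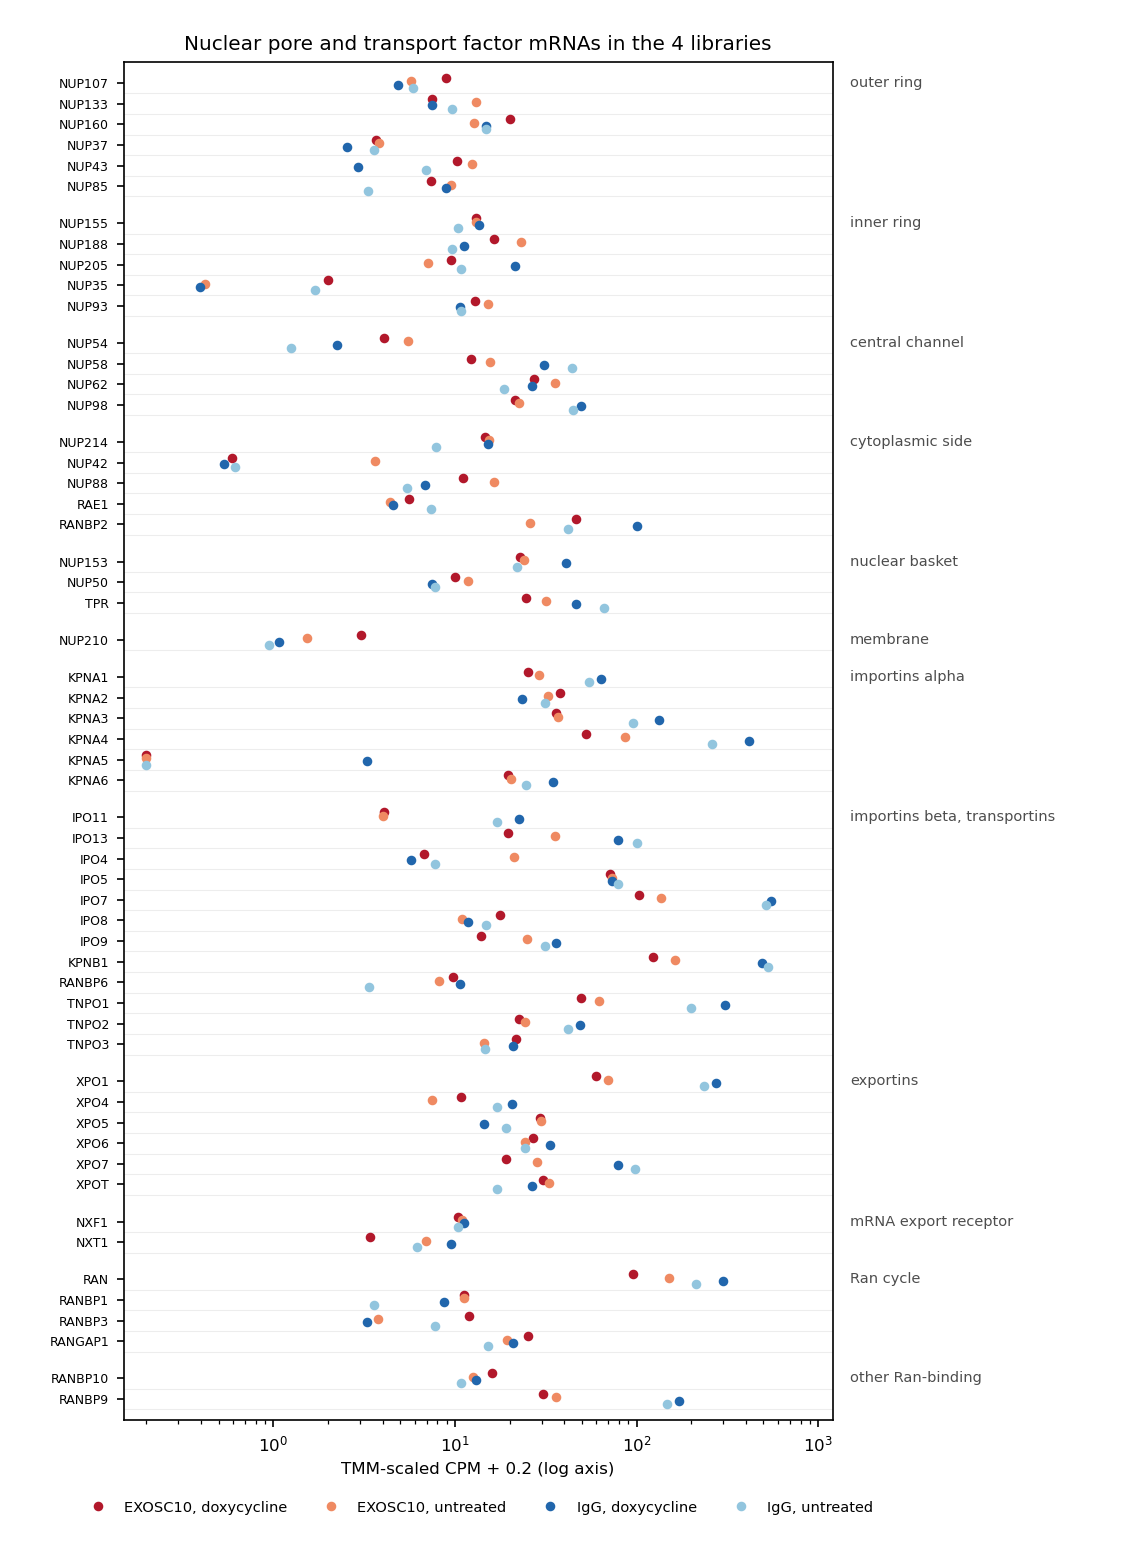
Level of each mRNA in the 4 libraries, as TMM-scaled CPM plus 0.2 on a log axis (1 point per library), with genes down the page by role. In KPNA4, IPO7, KPNB1, TNPO1, XPO1 and RANBP9 both IgG points lie to the right of both EXOSC10 points, while the 4 points of IPO5 lie between 70.9 and 79.4 scaled CPM.

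With doxycycline, 48 of the mRNAs had at least 100 reads in the EXOSC10 and IgG libraries together. By TMM scaling 18 of them were at least 2-fold lower with EXOSC10 than with IgG and 3 were at least 2-fold higher. Over all 6277 genes with 100 reads, 26.6% were lower and 14% were higher. The median log2 ratio of EXOSC10 over IgG was -0.21 over the pore and transport mRNAs and 0.05 over all genes. In untreated cells 31 had 100 reads, of which 11 were lower and 2 higher, where 36.1% of all 3618 genes were lower and 5.36% higher. The median there was -0.50, and -0.45 over all genes, so the group as a whole lay close to the bulk of genes in untreated cells. The mRNAs of importins, transportins and exportins made up most of the lower calls. With doxycycline 12 of their 23 were lower and 1 higher, with a median of -1.12, and the median of the 18 pore protein mRNAs was -0.03, with 4 lower and 1 higher. Untreated, 8 of 19 receptor mRNAs were lower and 1 higher, with a median of -0.78, and of the 9 pore protein mRNAs 2 were lower and 1 higher, with a median of -0.22. These directions are relative to the scaling: by total counts all genes moved up by 2.43 on the log2 scale with doxycycline, where 0 members were then lower and 37 higher, and by 0.79 untreated, where 3 were lower and 7 higher. Because a scaling shifts all genes of a pair nearly alike, the distance between the median of the members and that of all genes could hardly move. With doxycycline it was -0.25 by TMM and -0.26 by total counts, which is no check of the scaling.

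Among the pore proteins, the outer ring forms the Y-shaped complex that coats the pore's rim. With doxycycline its mRNAs chosen here by symbol lay near the bulk of genes or above it. SEH1L, an outer ring protein outside the chosen symbols, was lower with EXOSC10, at -1.08. NUP160 was at 19.9 scaled CPM with EXOSC10 and 14.6 with IgG after doxycycline, and at 12.6 with EXOSC10 and 14.7 with IgG in untreated cells. The doxycycline EXOSC10 library was the high one, and the log2 ratios over IgG were 0.45 (95% interval 0.01 to 0.92) with doxycycline and -0.22 (-0.81 to 0.39) without. NUP107 was at 8.78 with EXOSC10 against 4.67 with IgG after doxycycline, and at 5.54 against 5.64 untreated. NUP43 had the second highest doxycycline ratio of the group, with 10.0 scaled CPM with EXOSC10 and 2.72 with IgG after doxycycline, and 12.2 with EXOSC10 and 6.77 with IgG untreated. Both EXOSC10 libraries were above both IgG libraries, with a doxycycline log2 ratio of 1.81 (0.93 to 3.02), although the IgG value rests on 9.31 reads and NUP43 holds fractions. NUP133 was at 7.25 with EXOSC10 and 7.29 with IgG after doxycycline, and at 12.8 with EXOSC10 and 9.40 with IgG untreated.

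In the inner ring, NUP188 and NUP205, which encode large related scaffold proteins, lay on opposite sides. NUP188 was at 16.2 with EXOSC10 and 11.1 with IgG after doxycycline, and at 22.9 with EXOSC10 and 9.40 with IgG untreated. Its EXOSC10 values were the higher in each treatment, by 0.54 (0.04 to 1.08) with doxycycline and 1.27 (0.65 to 1.97) untreated, which is over 2-fold. NUP205 was at 9.28 with EXOSC10 and 21.3 with IgG after doxycycline, and at 6.88 with EXOSC10 and 10.5 with IgG untreated. Here the IgG values were the higher, with a doxycycline log2 ratio of -1.18 (-1.62 to -0.76) and an untreated one of -0.60 from too few reads for a call. NUP93 and NUP155, further scaffold proteins of the inner ring, had doxycycline ratios of 0.28 and -0.05.

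Of the central channel mRNAs with 100 reads, 2 of 3 were lower with EXOSC10 under doxycycline and 1 of 3 untreated. NUP58, which forms the channel with NUP62 and NUP54, was at 12.04 with EXOSC10 and 30.9 with IgG after doxycycline, and at 15.5 with EXOSC10 and 44.0 with IgG untreated. It was the only pore protein mRNA lower by 2-fold in both treatments, at -1.35 (-1.72 to -0.99) and, untreated, -1.50 (-1.93 to -1.09). NUP98, whose precursor also yields the outer ring protein NUP96, was at 21.3 with EXOSC10 and 49.1 with IgG after doxycycline, and at 22.3 with EXOSC10 and 44.4 with IgG untreated. Its sum over 11 entries was lower with EXOSC10, by 2.29-fold with doxycycline and 1.98-fold without, but its entry with the most reads alone gave a doxycycline log2 ratio of 3.82. NUP62 was at 27.1 with EXOSC10 and 26.2 with IgG after doxycycline, and at 35.5 with EXOSC10 and 18.4 with IgG untreated, so that the antibodies hardly differed with doxycycline (0.04, -0.29 to 0.39) and differed untreated (0.94, 0.49 to 1.43). The entry of NUP62 with the most reads alone gave a doxycycline ratio of 6.28.

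On the cytoplasmic side, RANBP2, the SUMO ligase that makes up the cytoplasmic filaments, was at 46.3 with EXOSC10 and 101 with IgG after doxycycline, and at 25.5 with EXOSC10 and 41.7 with IgG untreated. The doxycycline IgG library stood out, and the EXOSC10 over IgG ratio was -1.12 (-1.31 to -0.93) with doxycycline and -0.70 (-1.08 to -0.33) untreated. NUP88, which anchors NUP214, was at 10.8 with EXOSC10 and 6.65 with IgG after doxycycline, and at 16.2 with EXOSC10 and 5.28 with IgG untreated. In the nuclear basket, TPR, the coiled-coil protein that forms its fibres, was at 24.3 with EXOSC10 and 46.1 with IgG after doxycycline, and at 31.5 with EXOSC10 and 65.8 with IgG untreated. TPR thus had both EXOSC10 values below both IgG values, just short of 2-fold with doxycycline (-0.92) and past it untreated (-1.06). NUP153, a basket protein that tethers TPR, was at 22.7 with EXOSC10 and 40.8 with IgG after doxycycline, and at 23.7 with EXOSC10 and 21.8 with IgG untreated. Only its doxycycline IgG value was high, with a doxycycline ratio of -0.84 for the sum of its entries and 1.99 for the entry with the most reads. NUP210, a membrane-spanning ring protein, had 39 reads with EXOSC10 and 3 with IgG after doxycycline, and 7 with EXOSC10 and 2 with IgG untreated, too few for a call.

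The 5 importin alpha mRNAs tested, whose products are adaptors that bind the classical nuclear localisation signal, spanned a wide range with doxycycline, from -2.99 to 0.68, and a narrower one untreated, from -1.58 to 0.06. KPNA4 was at 52.3 with EXOSC10 and 416 with IgG after doxycycline, and at 86.3 with EXOSC10 and 259 with IgG untreated. Of the 48 mRNAs it had the lowest doxycycline ratio, -2.99 (-3.12 to -2.86) or 7.93-fold lower. Scaled by total counts the ratio was -0.53. It was again the lowest of the 48, a rank that could hardly change because a scaling shifts all of them nearly alike. KPNA3, its closest relative, was at 35.8 with EXOSC10 and 133 with IgG after doxycycline, and at 36.7 with EXOSC10 and 95.9 with IgG untreated. KPNA1 was at 25.0 with EXOSC10 and 63.2 with IgG after doxycycline, and at 28.8 with EXOSC10 and 54.8 with IgG untreated. All 3 had higher IgG than EXOSC10 values in each treatment. KPNA2, the importin alpha most tied to proliferating cells, was at 37.6 with EXOSC10 and 23.3 with IgG after doxycycline, and at 32.5 with EXOSC10 and 31.2 with IgG untreated. It was the only importin alpha mRNA of the 5 tested with a ratio above 0, at 0.68 (0.35 to 1.05) with doxycycline and 0.06 (-0.33 to 0.45) without. KPNA6 was at 19.4 with EXOSC10 and 34.4 with IgG after doxycycline, and at 20.1 with EXOSC10 and 24.4 with IgG untreated. KPNA5 had 10.6 reads with IgG after doxycycline and 0 elsewhere.

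Importins of the beta family and transportins bind cargo, or importin alpha, directly. KPNB1, importin beta itself, was at 123 with EXOSC10 and 491 with IgG after doxycycline, and at 163 with EXOSC10 and 527 with IgG untreated. With 854 to 1700 reads per library it was the deepest of the group, and it was 3.98-fold lower with EXOSC10 under doxycycline and 3.23-fold lower untreated. IPO7, an import receptor for ribosomal proteins and, with KPNB1, for linker histone, was at 103 with EXOSC10 and 549 with IgG after doxycycline, and at 136 with EXOSC10 and 513 with IgG untreated. TNPO1, which imports hnRNP proteins, was at 49.2 with EXOSC10 and 309 with IgG after doxycycline, and at 62.3 with EXOSC10 and 200 with IgG untreated. Both lay far below their IgG values, at -2.41 (-2.51 to -2.31) and -2.64 (-2.79 to -2.51) with doxycycline. IPO13, which imports some cargoes and exports others, was at 19.4 with EXOSC10 and 78.7 with IgG after doxycycline, and at 35.5 with EXOSC10 and 101 with IgG untreated. IPO11 was at 3.84 with EXOSC10 and 22.5 with IgG after doxycycline, and at 3.82 with EXOSC10 and 16.9 with IgG untreated. IPO11 was lower with EXOSC10 under doxycycline, at -2.49 (-3.08 to -2.02), and its untreated ratio of -2.09 came from too few reads for a call.

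Not all members of this family were lower with EXOSC10. IPO5, an importer of ribosomal proteins and histones, was at 70.9 with EXOSC10 and 72.9 with IgG after doxycycline, and at 73.2 with EXOSC10 and 79.4 with IgG untreated. Its libraries held 211 to 977 reads. By TMM scaling its ratios were -0.04 (-0.24 to 0.17) with doxycycline and -0.12 (-0.36 to 0.13) untreated. These intervals cover counting error only and do not bound the difference between the antibodies. IPO4, an importer of histones and ribosomal proteins, was at 6.53 with EXOSC10 and 5.54 with IgG after doxycycline, and at 20.8 with EXOSC10 and 7.52 with IgG untreated. The untreated EXOSC10 library was its only high one, and the untreated ratio, 1.44 (0.77 to 2.24), was the highest of the 31. IPO9, which imports actin and core histones, was at 13.8 with EXOSC10 and 35.9 with IgG after doxycycline, and at 24.8 with EXOSC10 and 31.2 with IgG untreated. IPO9 was over 2-fold lower with EXOSC10 under doxycycline (-1.37, -1.72 to -1.04), and its untreated interval included 0 (-0.33, -0.74 to 0.09). TNPO3, which imports serine- and arginine-rich splicing factors, had ratios of 0.05 with doxycycline and -0.02 untreated, from 12 entries with fractions, and the entry with the most reads gave -1.01 with doxycycline.

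Among the exportins, XPO1, the receptor for leucine-rich export signals, was at 59.6 with EXOSC10 and 273 with IgG after doxycycline, and at 69.5 with EXOSC10 and 236 with IgG untreated. XPO7, an exportin of several protein cargoes, was at 19.0 with EXOSC10 and 79.3 with IgG after doxycycline, and at 28.1 with EXOSC10 and 98.2 with IgG untreated. XPO1 was 4.57-fold lower with EXOSC10 under doxycycline and 3.39-fold lower untreated, and XPO7 4.14-fold and 3.48-fold lower. XPO5, which exports microRNA precursors, was at 29.2 with EXOSC10 and 14.3 with IgG after doxycycline, and at 29.4 with EXOSC10 and 18.8 with IgG untreated. XPOT, the exportin of tRNA, was at 30.3 with EXOSC10 and 26.2 with IgG after doxycycline, and at 32.9 with EXOSC10 and 16.9 with IgG untreated. The EXOSC10 values of both were above their IgG values, past 2-fold only for XPO5 with doxycycline: XPO5 was at 1.02 (0.60 to 1.49) with doxycycline and 0.64 (0.18 to 1.14) untreated, and XPOT was at 0.21 (-0.12 to 0.55) with doxycycline and 0.95 (0.48 to 1.46) untreated. XPO4, which exports the translation factor eIF5A, was at 10.6 with EXOSC10 and 20.4 with IgG after doxycycline, and at 7.26 with EXOSC10 and 16.9 with IgG untreated. XPO6, the exportin of actin, had a doxycycline ratio of -0.32 (-0.63 to -0.01).

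NXF1, the bulk mRNA export receptor, had nearly equal levels in the libraries: 10.2 with EXOSC10 and 11.1 with IgG after doxycycline, and 10.7 with EXOSC10 and 10.2 with IgG untreated. Its partner NXT1 was at 3.19 with EXOSC10 and 9.33 with IgG after doxycycline, and at 6.69 with EXOSC10 and 6.02 with IgG untreated, from 16 to 44 reads per library. RAN was at 95.3 with EXOSC10 and 299.8 with IgG after doxycycline, and at 151 with EXOSC10 and 214 with IgG untreated. Its EXOSC10 values were below its IgG values, by 3.14-fold with doxycycline and 1.41-fold untreated. RANBP3, a cofactor of XPO1, was at 11.8 with EXOSC10 and 3.08 with IgG after doxycycline, and at 3.59 with EXOSC10 and 7.59 with IgG untreated. Only its doxycycline EXOSC10 value was high (162 reads against 10.6 to 20.2 in the other libraries), and it holds fractions, so its reads could be split with other genes. RANGAP1, which activates GTP hydrolysis by Ran, and RANBP1, which helps it, had doxycycline ratios of 0.27 and 0.37. RANBP9, a scaffold protein of a ubiquitin ligase complex named for its binding to Ran, was at 30.5 with EXOSC10 and 171 with IgG after doxycycline, and at 35.6 with EXOSC10 and 147 with IgG untreated. It was 5.57-fold lower with EXOSC10 under doxycycline and 4.10-fold lower untreated.

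The doxycycline and untreated ratios come from separate libraries and could be set beside each other for 31 of the mRNAs. Of these, 10 were at least 2-fold lower with EXOSC10 in each treatment: IPO7, IPO13, KPNA3, KPNA4, KPNB1, NUP58, RANBP9, TNPO1, XPO1 and XPO7. This is 32.3% of the 31, beside 31% of the 3598 genes measured in both pairs. None was higher in each treatment and none was on opposite sides. Both were rare among all 3598 genes, of which 36 were higher in each treatment and 2 were on opposite sides. As a description over genes, which are not replicates, the treatments' ratios had Pearson's r = 0.89 and Spearman's rho = 0.90 over the 31, and r = 0.79 and rho = 0.81 over all 3598 genes. The pairs share the cell line and the scaling but no library.

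**Figure D2:**
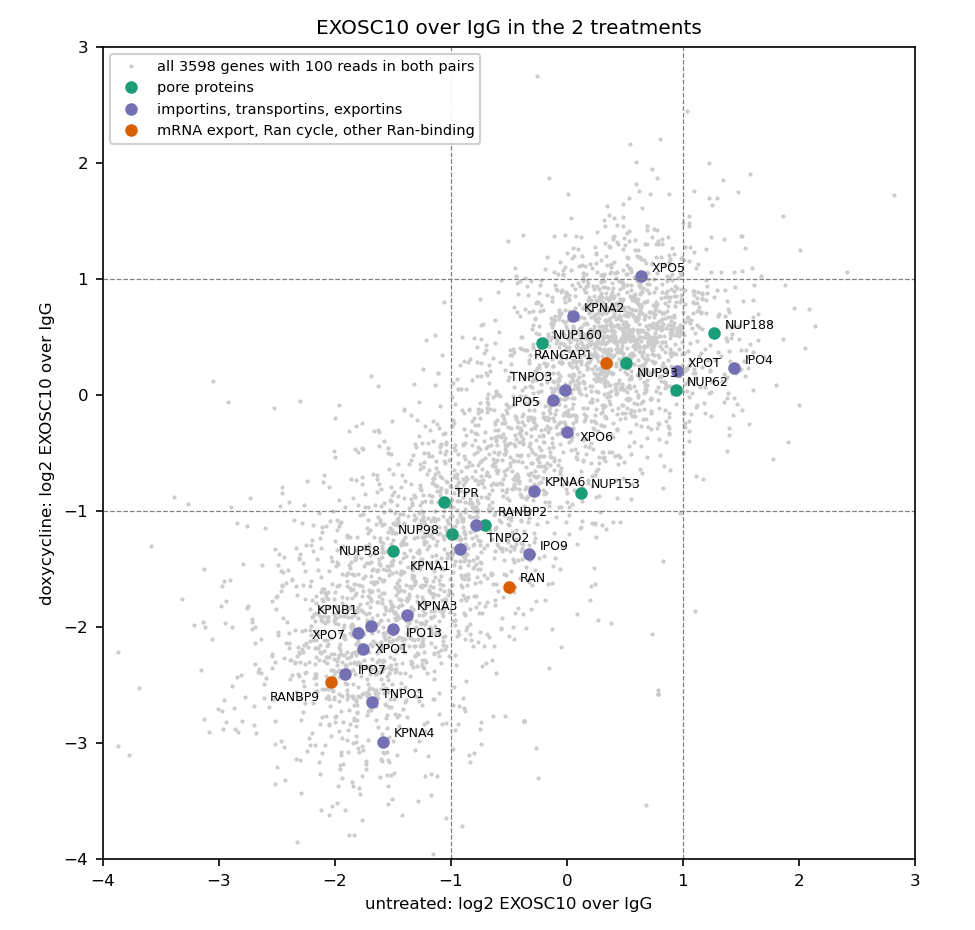
Log2 ratio of EXOSC10 over IgG with doxycycline (vertical axis) against the same ratio in untreated cells (horizontal axis); coloured points are the 31 pore and transport mRNAs, grey points all 3598 genes, of which 11 lie outside the axes, and dashed lines mark 2-fold. The 10 mRNAs lower in each treatment sit at the lower left, and XPO5, NUP188 and IPO4 are the points past 2-fold on the upper or right side.

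The EXOSC10 over IgG ratio with doxycycline went with how many reads a gene had in IgG. This was seen in the untreated IgG library, which the ratio does not use. The minimum of 100 reads bears on this relation, because a gene with few doxycycline IgG reads reached it only through its EXOSC10 reads. NUP43 and RANBP3, called higher, reached it with 9.31 and 10.6 doxycycline IgG reads. Of the 17 mRNAs with at least 100 reads in the untreated IgG library, 15 were lower with EXOSC10 under doxycycline (88.2%), with a median log2 ratio of -1.89. IPO5 and TPR were the other two. Of the 31 with fewer reads, 3 were lower (9.68%) and 3 higher, with a median of 0.21. All genes with 100 such reads showed 1082 of 1592 lower (68%) and a median of -1.57, and those with fewer showed 587 of 4685 lower (12.5%) and a median of 0.33. Over genes, the doxycycline ratio against the log2 level in untreated IgG gave r = -0.78 and rho = -0.75 for the 48, and r = -0.65 and rho = -0.64 for all 6277. KPNB1, IPO7, KPNA4, XPO1, RAN and TNPO1, the mRNAs with most IgG reads, are all in the lower group. The part of this level in the differences between roles was not tested, nor was the part of the read minimum in this relation.

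**Figure D3:**
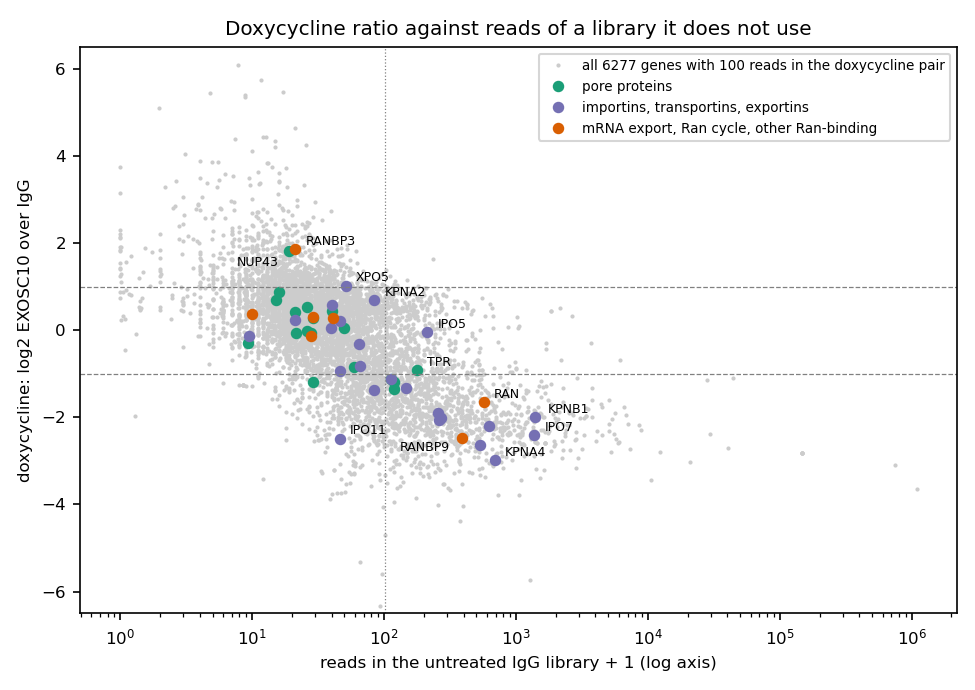
Log2 ratio of EXOSC10 over IgG with doxycycline (vertical axis) against reads in the untreated IgG library plus 1 (log axis), 1 point per gene, grey for all 6277 genes. Right of the dotted line at 100 reads, 15 of 17 pore and transport mRNAs lie below the lower dashed line (2-fold), and IPO11 is lower at 45 reads.

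Related receptors differed in how they were recovered, a comparison within libraries that the scaling leaves nearly untouched. IPO7 and IPO8 are close relatives. IPO8, an import receptor for Argonaute and SMAD proteins, was at 17.6 with EXOSC10 and 11.7 with IgG after doxycycline, and at 10.7 with EXOSC10 and 14.7 with IgG untreated. Its log2 ratio with doxycycline was 0.58 (0.10 to 1.11), so IPO7 lay 7.95-fold below IPO8 there and 2.76-fold below it untreated, where IPO8 had fewer than 100 reads. RANBP10, related to RANBP9, was at 15.8 with EXOSC10 and 12.8 with IgG after doxycycline, and at 12.4 with EXOSC10 and 10.5 with IgG untreated. RANBP9 lay 6.84-fold below RANBP10 with doxycycline and 4.82-fold below it untreated, where RANBP10 had fewer than 100 reads. The doxycycline ratio of RANBP10 was 0.30 from the sum of its 4 entries and 4.81 from the entry with the most reads, so the size of this difference depends on the sum. TNPO2, the near twin of TNPO1, was at 22.4 with EXOSC10 and 48.9 with IgG after doxycycline, and at 24.2 with EXOSC10 and 41.7 with IgG untreated. It was lower with EXOSC10 too, but TNPO1 lay a further 2.87-fold below it with doxycycline and 1.86-fold untreated. RANBP6, related to IPO5, was at 9.57 with EXOSC10 and 10.5 with IgG after doxycycline, and at 7.99 with EXOSC10 and 3.16 with IgG untreated. IPO5 and RANBP6 differed by 1.06-fold with doxycycline, and IPO5 lay 2.64-fold below RANBP6 untreated, where RANBP6 had fewer than 100 reads. KPNA1 lay 1.42-fold below KPNA6 with doxycycline and 1.56-fold untreated. KPNA4 lay 2.14-fold below KPNA3 with doxycycline and 1.15-fold untreated. In the pairs of IPO7, RANBP9, TNPO1, KPNA4 and KPNA1 the lower member was also the one with more reads in IgG. The same held for IPO5 beside RANBP6 untreated. With doxycycline IPO5, which had more IgG reads, was instead the higher of that pair, by 1.06-fold. IgG is the denominator of these ratios, so more IgG reads lower a ratio by construction. The pairs are therefore no separate support for a relation with level.

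**Figure D4:**
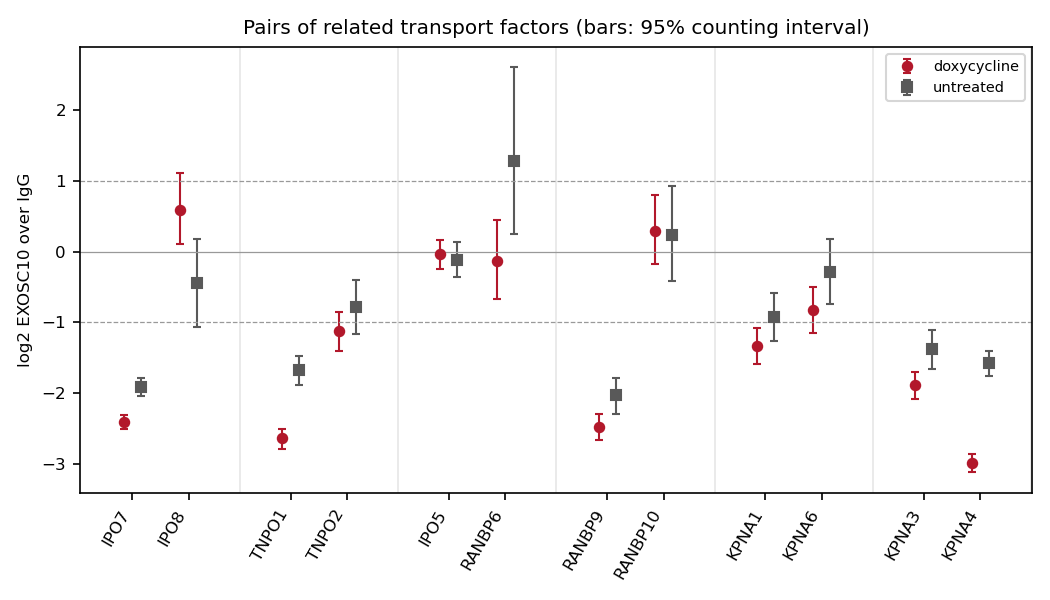
Log2 ratio of EXOSC10 over IgG for 6 pairs of related transport factors, with doxycycline (circles) and untreated (squares), with 95% counting intervals as bars and dashed lines at 2-fold. IPO7 and RANBP9 lie at or below -1.91 in each treatment and IPO8 and RANBP10 between -0.45 and 0.58; the wide bars of RANBP6 untreated rest on 8.40 IgG reads.

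The 2 pairs that differed most are shown by the 150 bases before their transcription starts, from RefSeq on GRCh38.p14, to set the sequences beside the values. Capitals mark the letters GGGCGG (GC box) or CCAAT on either strand. The IPO7 window is chr11:9384502-9384651 on the plus strand, that of IPO8 chr12:30695870-30696019 on the minus strand, that of RANBP9 chr6:13711836-13711985 on the minus strand and that of RANBP10 chr16:67806561-67806710 on the minus strand.
IPO7: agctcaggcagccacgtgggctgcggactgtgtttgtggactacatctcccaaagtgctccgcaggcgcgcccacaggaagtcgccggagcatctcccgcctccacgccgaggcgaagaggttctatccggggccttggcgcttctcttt
IPO8: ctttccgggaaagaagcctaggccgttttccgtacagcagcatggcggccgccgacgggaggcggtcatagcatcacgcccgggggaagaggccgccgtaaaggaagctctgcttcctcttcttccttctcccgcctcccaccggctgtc
RANBP9: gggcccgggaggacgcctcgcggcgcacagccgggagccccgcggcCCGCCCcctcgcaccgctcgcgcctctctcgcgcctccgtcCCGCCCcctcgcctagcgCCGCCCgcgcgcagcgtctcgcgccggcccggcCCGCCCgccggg
RANBP10: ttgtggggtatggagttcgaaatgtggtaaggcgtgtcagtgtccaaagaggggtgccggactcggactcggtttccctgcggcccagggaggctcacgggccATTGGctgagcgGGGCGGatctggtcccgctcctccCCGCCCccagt
The RANBP9 window is 86.7% G and C with 4 GC boxes, and that of RANBP10 is 65.3% with 2 GC boxes and 1 CCAAT. Both IPO7 and IPO8 are 64% G and C with neither motif. Over the promoter windows of the group (62 windows for 50 matched genes, none for KPNA4, KPNA5, KPNB1, NUP43, RANBP1 and XPO7), 21.0% held the ETS letters CCGGAAG and 14.5% the NRF1 letters (GCGCA, any base, GCGC) on either strand. The shares over the 22199 windows of coding genes were 8.58% and 5.56%. For CCAAT they were 35.5% over the group and 24.8% over coding genes, and for GGGCGG 40.3% and 47.2%. A match is a run of letters and no measured site, and these libraries hold no measure of promoter activity.

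The primary comparison, doxycycline over untreated in the EXOSC10 libraries, showed 2-fold differences in few of these mRNAs by TMM scaling of summed entries. Of 47 with 100 reads, 1 was at least 2-fold higher (RANBP3) and 1 at least 2-fold lower (IPO4), beside 6.06% higher and 3.98% lower of all 6583 genes. The median log2 ratio was -0.11, and -0.04 over all genes. IPO4 (chr14:24180219-24188816, GRCh38) had 90 reads in the doxycycline EXOSC10 library against 109 in the untreated one, and 19 against 20 in the IgG libraries. After scaling its EXOSC10 level with doxycycline was lower, with a log2 ratio of -1.64 (-2.09 to -1.26), and its IgG ratio of -0.43 (-1.43 to 0.54) rests on few reads. By total counts the IPO4 ratio was -0.65 and no longer past 2-fold, by the non-ribosomal total it was -1.49, and by the entry with most reads -2.31. RANBP3 (chr19:5916139-5978140) had 162 estimated reads with doxycycline against 18.8 untreated, a ratio of 1.66 (1.02 to 2.49), in an mRNA with fractional reads.

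Next in size on the lower side were IPO13 at -0.87 (-1.15 to -0.60), IPO9 at -0.84 (-1.18 to -0.52), NUP133 at -0.80 (-1.28 to -0.35) and KPNA4 at -0.72 (-0.90 to -0.55). On the higher side were RANBP2 at 0.85 (0.59 to 1.14), IPO8 at 0.70 (0.29 to 1.16), NUP160 at 0.65 (0.27 to 1.07) and NUP107 at 0.65 (0.07 to 1.30). All 8 stayed within 2-fold by TMM scaling of summed entries. With the entry with most reads IPO8 was at 6.37, and XPO4, at 0.53 from its sum, was at 5.75. NUP98, NUP62, RANBP10 and TNPO2 were then past 2-fold too, at 3.69, 2.37, 4.90 and 2.27, as were NUP50, RANBP1 and NUP214. RAN was at -0.66 (-0.79 to -0.54), KPNB1 at -0.40 (-0.52 to -0.28) and IPO7 at -0.40 (-0.53 to -0.27), while XPO5, KPNA3 and IPO5 were at -0.01, -0.04 and -0.05. By total counts all genes moved up by 1.01 in this comparison, and 16 of the mRNAs were then at least 2-fold higher and 0 lower.

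**Figure D5:**
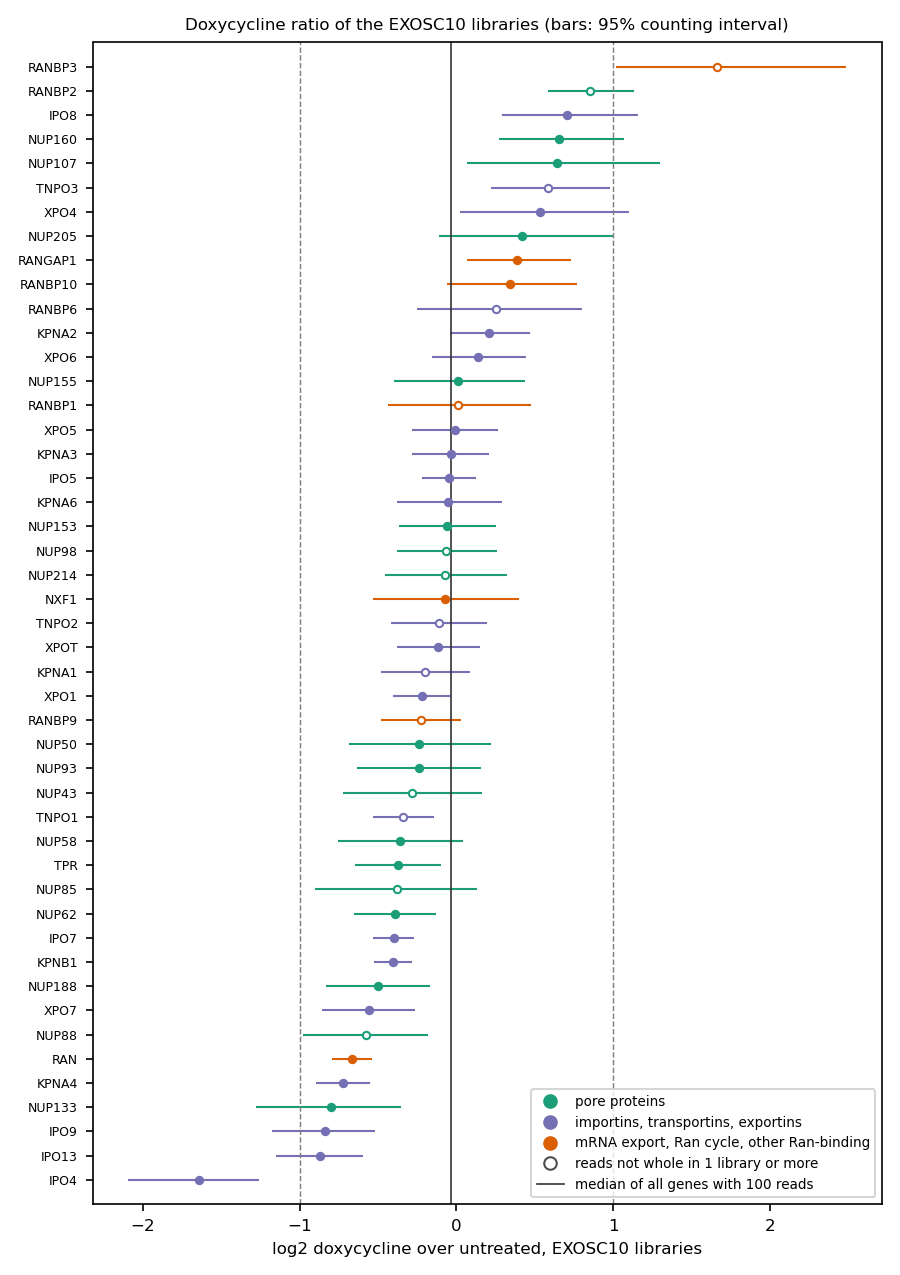
Log2 ratio of doxycycline over untreated in the EXOSC10 libraries for the 47 mRNAs with 100 reads, with 95% counting intervals as bars and open points where reads were not whole. All but RANBP3 and IPO4 lie between the dashed lines at 2-fold, and the solid line is the median of all genes, -0.04.

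In the IgG libraries, doxycycline over untreated, 29 of the mRNAs had 100 reads. Of these 2 were at least 2-fold higher and 0 lower, where 2.97% of all 3026 genes were higher and 3.44% lower. They were RANBP2 at 1.27 (0.96 to 1.59) and NUP205 at 1.00 (0.37 to 1.70). The median was 0.27, and -0.05 over all genes, and 22 of the 29 had a ratio above 0, beside 1375 of all 3026 genes. NUP153 at 0.90 (0.45 to 1.37), KPNA4 at 0.69 (0.55 to 0.82) and XPOT at 0.63 (0.10 to 1.18) followed on the higher side. The lowest were TPR at -0.51, NUP58 at -0.51, KPNA2 at -0.42, IPO13 at -0.36 and XPO7 at -0.31. RANBP2 was thus higher with doxycycline in both antibodies, and its ratio in EXOSC10 was 0.85.

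The change of enrichment, the EXOSC10 over IgG log2 ratio with doxycycline minus that untreated, was available for 28 of the mRNAs. It was lower by at least 2-fold for KPNA4, RAN and IPO9 and higher for 0, where 10.9% of all 2945 genes were lower and 4.75% higher. KPNA4 (chr3:160495007-160565571) was at -1.41 (-1.62 to -1.19), with a lower EXOSC10 level and a higher IgG level under doxycycline. RAN (chr12:130872066-130877678) was at -1.15 (-1.35 to -0.96) with the same pattern. IPO9 (chr1:201829157-201884291) was at -1.04 (-1.55 to -0.53), with a lower EXOSC10 level and an IgG ratio whose interval included 0 (0.20, -0.21 to 0.62). The median over the 28 was -0.42, and -0.14 over all genes, and 6 of the 28 were above 0, beside 1223 of all 2945 genes. TNPO1 at -0.96 and NUP153 at -0.96 were the next lowest and just short of 2-fold, and the highest were KPNA2 at 0.63, XPO4 at 0.27, NUP58 at 0.15, TPR at 0.14 and IPO5 at 0.08. Scaled by total counts, all genes moved up by 1.66 and the 3 lower mRNAs turned to 0.26 (KPNA4), 0.52 (RAN) and 0.62 (IPO9). By the non-ribosomal total they were at -1.39, -1.13 and -1.02, and with the entry with most reads RAN was at -0.94, short of 2-fold.

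A test was possible only with the treatments standing in for replicates of the antibody, or the antibodies for replicates of the treatment, in limma over all 4 libraries with 1 residual degree of freedom. For EXOSC10 over IgG it called 17 of the 52 mRNAs tested lower and 0 higher at a Benjamini-Hochberg adjusted p of 0.05, and 23 had an unadjusted p under 0.05. Of all 9591 genes tested 15.9% were lower and 1.37% higher, and 2986 had an unadjusted limma p under 0.05. Of the 17 that fell with EXOSC10, 11 encode importins, transportins or exportins (of 23 tested) and 4 encode pore proteins (of 21 tested). RANBP9 was lowest in p (log2 difference -2.26, SE 0.26, limma adjusted p = 0.00169). IPO7 fell by 2.16 and XPO1 by 1.98 on the log2 scale (limma adjusted p = 0.00174 for each). KPNB1 was at -1.84 (limma adjusted p = 0.00231), KPNA4 at -2.28 (limma adjusted p = 0.00261) and IPO11 at -2.29 (limma adjusted p = 0.00714). The pore proteins that fell were NUP58 at -1.42 (limma adjusted p = 0.0117), NUP98 at -1.09 (0.0265), TPR at -0.99 (0.0336) and RANBP2 at -0.91 (0.0473). RAN, at -1.08, lay at the threshold (limma adjusted p = 0.0499). XPO5 at 0.83 (limma adjusted p = 0.106), NUP43 at 1.32 (0.117) and NUP188 at 0.90 (0.140) did not pass. Scaled by the non-ribosomal total these 3 passed, at 1.85, 2.31 and 1.91, and limma called 21 of the mRNAs higher and 8 lower. Of all 9591 genes limma called 4094 in either direction with that scaling, against 1655 by TMM. With the median of ratios RAN, RANBP2 and TNPO2 lost their calls, which left 14. Scaled by total counts the test called 0 of the mRNAs lower, and with the entry with most reads in place of the sum it called none of the 8659 genes tested. For doxycycline over untreated, limma called 0 of the 52 mRNAs and 0 of all genes. RANBP2 alone had an unadjusted p under 0.05 (log2 difference 1.06, limma adjusted p = 0.850), as did 444 genes in all.

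Other genes of nuclear transport were set beside the 26.6% of all genes lower and 14% higher in the doxycycline pair. Of 8 pore proteins with other names, 2 were lower with EXOSC10 under doxycycline (the membrane protein NDC1 at -1.09 and the outer ring protein SEH1L at -1.08) and 0 higher, with a median of 0.03. Of 4 other receptors and Ran regulators with 100 reads, NUTF2, which carries Ran into the nucleus, was lower at -1.64, and CSE1L, the exportin of importin alpha, was at -0.67. None of the 4 was higher. Of 17 TREX and TREX-2 mRNA export factors, 4 were lower and THOC7 was higher (1.13, from 91 EXOSC10 and 10 IgG reads). CHTOP, an mRNA export adaptor, was at -2.32 and ENY2, a TREX-2 subunit, at -2.02, and their untreated ratios were -2.17 and -2.34. In the EXOSC10 libraries, doxycycline over untreated, GLE1, an mRNA release factor at the pore, was at 1.49. ZC3H11A was at 1.51, THOC5 at 1.22 and THOC3 at -1.66, and of these and GLE1 only GLE1 had whole reads throughout. GLE1 had 116 reads with doxycycline and 15 untreated, and THOC5 142 and 22.4. Both reached 100 reads through the library where they were high.

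By TMM scaling of summed entries, the remaining mRNAs stayed within 2-fold in every pair in which they had 100 reads. NUP85, NUP155, NUP93, NUP214, NUP50, TNPO3, XPO6, RANBP1 and RANGAP1 had doxycycline EXOSC10 over IgG ratios from -0.32 for XPO6 to 0.43 for NUP50. NUP214, the cytoplasmic filament protein, was at -0.07 with doxycycline and 0.96 untreated, the untreated value from 20.3 IgG reads. With the entry with most reads, the doxycycline EXOSC10 over IgG ratio was 1.97 for NUP50 and -1.01 for TNPO3. Doxycycline over untreated in EXOSC10 was then 3.61 for NUP50, 2.67 for RANBP1 and 1.88 for NUP214. The other values of these mRNAs in these ratios stayed within 2-fold. Among those under 100 reads in every pair, NUP37, an outer ring protein, had 48 reads with EXOSC10 and 8 with IgG after doxycycline, and 19 with EXOSC10 and 9 with IgG untreated. RAE1, an mRNA export factor that binds NUP98, had 74 with EXOSC10 and 15 with IgG after doxycycline, and 22 with EXOSC10 and 19 with IgG untreated. NUP54, of the central channel, had 53 with EXOSC10 and 7 with IgG after doxycycline, and 28 with EXOSC10 and 2.80 with IgG untreated. NUP35 and NUP42 had at most 24.9 and 18 reads in any library. At these depths their ratios were not called.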

How the data were processed

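RNA immunoprecipitated with EXOSC10 antibody or control IgG was sequenced from a breast cancer line with and without doxycycline. The authors deposited a table of reads per 1000000 (CPM), read as such from its values: every column reaches that sum apart from 0.0001 on each entry. STAR, Partek and hg38 are named, without versions, per the submitters' processing notes. Reads were estimated as CPM over the step of the low values, 0.132 to 0.269 CPM. Between 67.6% and 74.0% of genes in a library were within 0.05 of a whole read, so no count model was used. The 24015 entries were summed to 12838 symbols, and every entry reached 10.0 reads in some library.

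Levels were scaled by TMM over the 4 libraries, with values under 0.5 reads taken as 0 and trims of 30% and 5%. Ratios are log2 of scaled CPM plus 0.2, which understates low genes, with exact Clopper-Pearson 95% intervals on reads that cover counting error only, or summed reciprocal reads for the change of enrichment. A call needed 100 reads in the pair (in each antibody's pair for the change) and a 2-fold ratio. Additive tests used limma 3.58.1 in R 4.3.3 with a trend on 9591 genes (10 reads or more in 2 libraries or more), at a Benjamini-Hochberg adjusted p of 0.05. Nothing in the labels ties the libraries to separate cultures. Scripts were tested on simulated data. The members and lists were chosen with earlier results of these data known. Values in all libraries are given for the 5 highest and 5 lowest members of each comparison, members called (at most 10 each way), related pairs and the member with most reads of each role, and other pathway genes by the 2 highest and 2 lowest of a list or by call. Alternatives were other scalings, a pseudocount of 1 CPM, a minimum of 20 reads, no filter, the entry with most reads, and members with whole reads. The entry with most reads was taken as the one with the highest CPM summed over the 4 libraries, which weighs a read differently between libraries. Coordinates and promoters are from RefSeq on GRCh38.p14, the build of hg38.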

Additional observations from a re-analysis of the deposited data

How the results depend on the processing

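Scaling moved most of the counts and the direction of many ratios: the median of all genes moved by 2.43 on the log2 scale (EXOSC10 over IgG with doxycycline) between TMM and total counts, and by 1.02 with the non-ribosomal total. By total counts, EXOSC10 over IgG had 37 mRNAs higher and 0 lower with doxycycline and 7 higher and 3 lower untreated, doxycycline over untreated had 16 higher and 0 lower in EXOSC10 and 0 higher and 4 lower in IgG, the change of enrichment had 21 higher and 0 lower, and limma called 0 lower for EXOSC10. The non-ribosomal total gave 19 higher and 7 lower, 10 higher and 1 lower untreated, and 2 higher in EXOSC10 under doxycycline. By limma it gave 21 higher and 8 lower, with 4094 of all 9591 genes called. Median of ratios gave 1 higher in IgG and 5 lower for the change, and by limma 14 lower (RAN, RANBP2 and TNPO2 lost their calls), and a pseudocount of 1 CPM 1 higher in IgG. A minimum of 20 reads gave 5 higher with doxycycline, 7 higher untreated, 2 higher and 3 lower in EXOSC10, 5 higher and 2 lower in IgG, and 3 higher and 9 lower for the change. The entry with most reads gave 8 higher with doxycycline, 5 higher untreated, 10 higher in EXOSC10, 1 higher and 1 lower in IgG, 2 higher for the change, and by limma 0 lower: its median standard error was 0.674, against 0.482 with summed entries, and 0 of 8659 genes were called. Whole reads alone left 1 higher with doxycycline, 0 in EXOSC10 and 1 in IgG.

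By total counts the doxycycline ratios of EXOSC10 over IgG turned to 0.44 for IPO13, 0.0553 for IPO7, 1.08 for IPO9, 1.12 for KPNA1, 0.57 for KPNA3, 0.47 for KPNB1, 1.25 for NUP205, 1.10 for NUP58, 1.25 for NUP98, 0.81 for RAN, 1.34 for RANBP2, 1.33 for TNPO2, 0.27 for XPO1 and 0.40 for XPO7, and the change to 0.62 for IPO9, 0.26 for KPNA4 and 0.52 for RAN. The limma differences turned to 0.49 for KPNA1, 0.19 for NUP58, 0.53 for NUP98, 0.55 for RAN, 0.71 for RANBP2, 0.67 for TNPO2 and 0.63 for TPR by total counts, and to 0.11 for RANBP2, 0.0703 for TNPO2 and 0.0353 for TPR by the non-ribosomal total. With the entry with most reads the called ratio of NUP98 turned to 3.82. Among ratios within 2-fold, NUP153 went to 1.99, NUP62 to 6.28, NUP50 to 1.97, RANBP10 to 4.81 and TNPO3 to -1.01. KPNA4, TNPO1, IPO11 and RANBP9 kept a doxycycline ratio below 0 by total counts, at -0.53, -0.18, -0.08 and -0.02. A scaling shifts all genes of a comparison alike; for the other settings the cause was not tested.

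No paired analysis was possible because the labels give no replicate numbers and each group is 1 library. Leaving out a library leaves no residual degree of freedom, so none was left out. Depth limits calls to 48 of the 56 mRNAs in some pair and to 28 in all 4 libraries.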
